A study of Homo sapiens with 12 samples.

Results

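The ATF4 amino acid response genes are 34 genes that are known targets or partners of the transcription factor ATF4, with ATF4 itself. The rule is a list of names that uses no measured value, but the list was drawn up with earlier results of these data known. Each symbol was matched to its Ensembl identifier in the gene count table, which held 60671 genes. All 34 were found there, and 33 of them were among the 13236 genes that passed a filter of more than 1 CPM, which is reads per 1000000 gene reads, in 3 or more libraries. The gene that did not pass was ASNS. The 34 genes lie on 19 chromosomes, so they are not a cluster of neighbours.

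The study compared BJ-5ta cells, human foreskin fibroblasts made immortal with telomerase (hTERT), in culture medium with 10% serum and after 10 days in 0.1% serum. Wild-type cells and ΔLEO1 cells were grown in both media, which gave 4 groups of 3 libraries of poly(A) RNA. LEO1 is a subunit of the PAF1 complex, which travels with RNA polymerase II. The ΔLEO1 cells are a single clone, made with guide RNAs to exons 1 and 2 of LEO1, so the clone and the deletion cannot be told apart, and wild-type and ΔLEO1 cells both carry hTERT. Artificial transcripts of the External RNA Controls Consortium (ERCC) were added to the RNA as a spike-in. In the labels the libraries are numbered 1 to 3 (wild type, 10% serum), 4 to 6 (ΔLEO1, 10% serum), 7 to 9 (wild type, 0.1% serum) and 10 to 12 (ΔLEO1, 0.1% serum).

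When amino acids run short, uncharged transfer RNA activates the kinase GCN2, and other stresses activate the kinases PERK, HRI or PKR. Each phosphorylates the initiation factor eIF2, which lowers translation in general but raises translation of the ATF4 mRNA. ATF4 then binds, with C/EBP proteins, to composite elements near genes for amino acid transport, amino acid synthesis, serine and folate metabolism, and redox balance. ATF4 is set to a large degree by translation, so the mRNA values given here do not measure the amount of ATF4 protein.

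The element that ATF4 and a C/EBP protein bind together has the core TGATGNAA. This core was searched on both strands of RefSeq promoter windows of GRCh38.p14, which run from 250 bases before to 50 bases after a transcription start. A window was at hand for 27 of the 34 genes and not for ALDH1L2, EIF4EBP1, NUPR1, PSPH, PYCR1, SHMT2 and SLC7A11. The core stood in a window of 9 of these 27 genes (33.3%), against 4.46% of the 27305 genes with a window. Counted by window it stood in 9 of 46 (19.6%), against 3.62% of all 35116 windows. A match is only a run of letters and does not show binding. The genes were listed as known targets or partners of ATF4, so their higher share with the core is not independent of that choice. Outside its free position the core has the same letters in every match through the search itself. Of the matches, 7 that lie before the start are printed 5′ to 3′ on the strand that reads TGATGNAA, with the core in capitals.
ASNS: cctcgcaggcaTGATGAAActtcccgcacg
ATF3: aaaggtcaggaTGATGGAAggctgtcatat
CEBPG: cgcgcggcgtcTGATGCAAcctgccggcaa
CHAC1: cctggcaggagTGATGCAAcggcaggggag
JDP2: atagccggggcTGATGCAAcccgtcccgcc
SLC1A4: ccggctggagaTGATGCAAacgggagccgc
SLC1A5: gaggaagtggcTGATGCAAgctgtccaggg

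The printed stretches lie at chr7:97872458-97872487 on the minus strand for ASNS, chr1:212565205-212565234 on the plus strand for ATF3 and chr19:33374060-33374089 on the plus strand for CEBPG. Those of CHAC1 (chr15:40953251-40953280, minus strand) and SLC1A4 (chr2:64989381-64989410, minus strand) read on the strand opposite to the gene. The stretches of JDP2 (chr14:75427995-75428024, plus strand) and SLC1A5 (chr19:46784893-46784922, minus strand) read along the gene. The core began 7 bases before the start in SLC1A4, 16 in JDP2, 42 in CEBPG, 68 in ASNS, 97 in SLC1A5, 191 in ATF3 and 209 in CHAC1, counted to its base farthest from the start. In SLC7A1 the core lay after the start, and the position of the match in the remaining gene is not given here. CEBPG, CHAC1, JDP2, SLC1A4 and SLC1A5 had the same letters throughout the core, with C in its free position.

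Gene counts per library ran from 26240632 to 45315560, and the ERCC transcripts took 0.625% to 3.24% of the counts, and the 95% Wilson interval of this share spanned at most 0.0120 percentage points. Values are given on 2 scales. ERCC-scaled counts are gene reads per 1000000 effective ERCC reads, the ERCC total of the library times its TMM factor, and move with the amount of mRNA in the sample against the spike-in. CPM give the share of a gene in the mRNA of the library. Whether the spike-in was added per cell or per mass of RNA is not given in the sources used here, and fewer cells and less RNA per cell cannot be told apart. The number of gene reads per effective ERCC read was 126, 105 and 69.5 in wild-type cells in 10% serum and 46.8, 60.3 and 37.3 in 0.1% serum. In ΔLEO1 cells it was 158, 117 and 105 in 10% serum against 52.7, 30.0 and 90.7 in 0.1% serum, so library 12 stood above both other libraries of its group. All 8 fibroblast markers stayed at or above 524 CPM in every library, and the 3 endothelial and 4 epithelial markers stayed at or below 1.42 CPM. Of 3 leukocyte markers 1 was under 1 CPM in every library and the highest value was 7.1 CPM, for PTPRC, which was higher in ΔLEO1 cells in both media (log2 fold change 4.30 and 4.15 with ERCC scaling). Its part in the results was not tested. Nothing in the labels says that the libraries of a group came from separate cultures, so p-values measure only the spread between these libraries.

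LEO1 was low in every ΔLEO1 library. Wild-type cells had 851, 935 and 915 counts of LEO1 in 10% serum and 1001, 799 and 682 in 0.1% serum. ΔLEO1 cells had 53, 36 and 55 counts in 10% serum and 23, 47 and 49 in 0.1% serum, with no overlap between genotypes. The log2 fold change of LEO1 was -4.02 ± 0.58 (SE) in 10% serum (adjusted p = 2.39e-10, edgeR) and -4.32 ± 0.59 in 0.1% serum (adjusted p = 2.1e-11, edgeR).

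The highest-numbered library of each group (3, 6, 9 and 12) stood apart from the others. Within a group, the chi-square per gene between 2 libraries was 2.87 to 11.1 when neither was the highest-numbered, and 59.6 to 129 when it was part of the pair. The ATF4 response genes took part in this difference. In library 9 (wild type, 0.1% serum) 21 of the 33 tested genes were over 1.5 times higher in CPM than in both other libraries of the group, against 6.85% of all tested genes. In library 12 (ΔLEO1, 0.1% serum) 18 of 33 were higher by this measure, against 9.67%. Library 6 (ΔLEO1, 10% serum) had 0 that were higher and 7 that were lower, against 3.38% and 6.12% of all tested genes. In library 3 (wild type, 10% serum) 2 were higher and 2 lower, against 3.34% and 7.93%. Those lower in library 9 were ATF3 and VLDLR (4.7% of all tested genes), and 0 were lower in library 12 (4.62%).

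The median log2 ratio of the highest-numbered library to the mean of the other libraries of its group was 0.842 over the 33 genes in library 9 and 0.735 in library 12, against 0.00351 and 0.0919 over all tested genes. In library 6 it was -0.387 against -0.0282, and in library 3 it was -0.0235 against -0.0217. The 7 genes lower in library 6 (DDIT3, PSAT1, PHGDH, ALDH1L2, CHAC1, TRIB3 and PCK2) were all among those higher in library 9 and among those higher in library 12. The threshold of 1.5 times was chosen after the data were seen. The labels do not say what sets the highest-numbered libraries apart, so results are also given without them where that moved a count or a call. Fits without them keep 2 libraries per group, and those left out are the ones that these data showed to stand apart. Their standard errors and p-values are therefore not comparable with those of all 12 libraries.

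**Figure D1:**
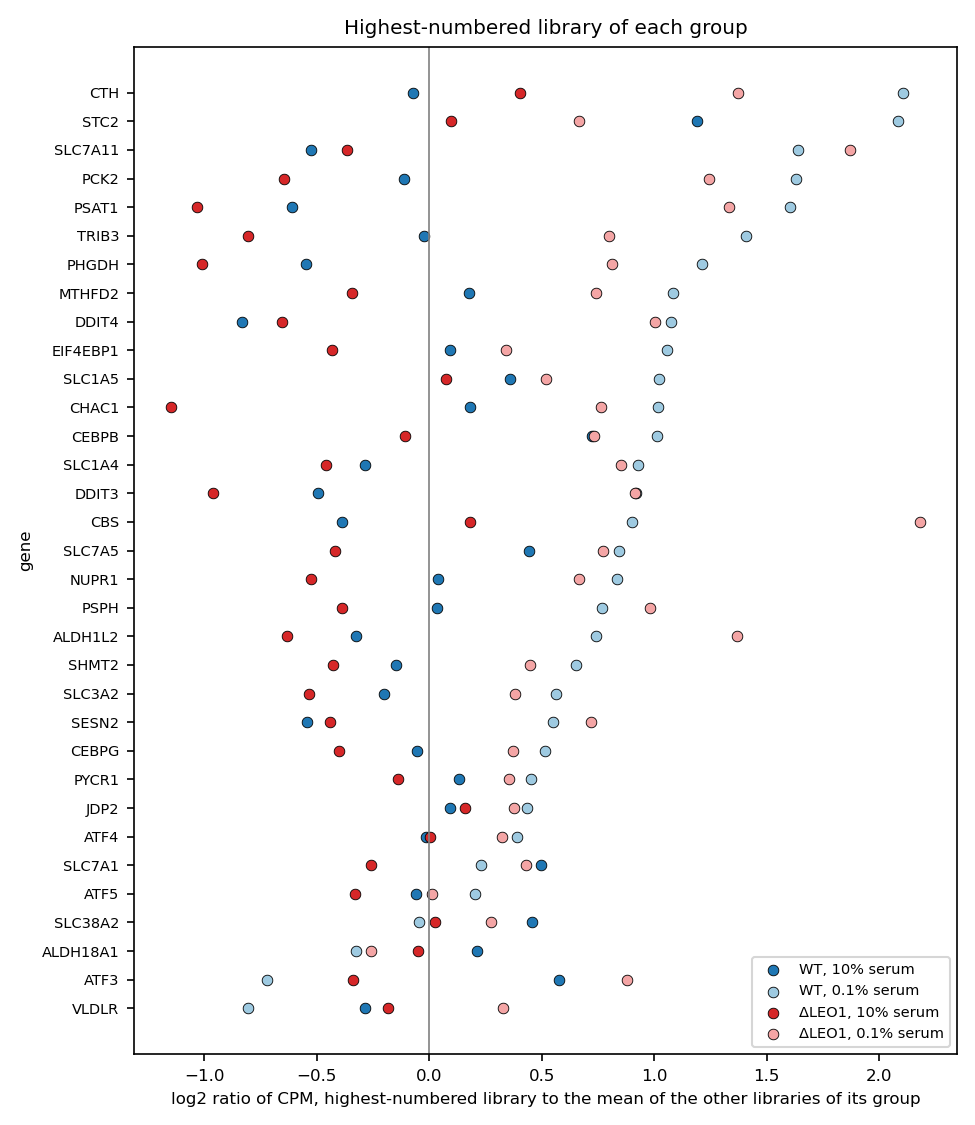
Log2 ratio of CPM between the highest-numbered library of each group and the mean of the other libraries of that group (x axis), for the 33 tested genes (y axis), with 1 point per group. Most points of the 0.1% serum groups lie to the right of 0 (medians 0.842 and 0.735), and those of ΔLEO1 cells in 10% serum lie mostly to the left (median -0.387).

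The levels of the 34 genes were compared with each other as CPM per kilobase of exon. In wild-type cells in 10% serum the highest were the glutamine transporter SLC1A5 at 139 ± 20.8 (SD, n = 3), ATF4 at 130 ± 1.42, the neutral amino acid transporter SLC38A2 at 109 ± 20.8 and the serine synthesis enzyme PSAT1 at 89.5 ± 20.1. SLC1A5, ATF4 and SLC38A2 did not differ by more than their spread. The lowest were ATF3, CTH, CBS and ASNS, the last at 0.211 ± 0.00584. In ΔLEO1 cells in 10% serum the order was SLC38A2 at 207 ± 2.08, SLC1A5 at 117 ± 4.72 and ATF4 at 60.5 ± 0.395, each apart from the next by more than its spread. VLDLR, a lipoprotein receptor, stood at 3.40 ± 0.389 in wild-type cells in 10% serum and at 0.139 ± 0.0101 in ΔLEO1 cells.

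ASNS, asparagine synthetase (chr7:97852118-97872542, minus strand), did not pass the filter on low values. It had 34 to 38 counts per library in wild-type cells in 10% serum, 15 to 23 in ΔLEO1 cells in 10% serum, 11 to 45 in wild-type cells in 0.1% serum and 8 to 38 in ΔLEO1 cells in 0.1% serum. Its CPM was 0.932, 0.919 and 0.969 in wild-type cells and 0.387, 0.508 and 0.450 in ΔLEO1 cells in 10% serum, where the groups did not overlap. In 0.1% serum it was 0.624, 0.419 and 1.34 in wild-type cells and 0.230, 0.553 and 1.08 in ΔLEO1 cells, and library 9 and library 12 were the highest of their groups. In a fit with no filter ASNS did not pass in any comparison on the ERCC scale, with log2 fold changes of -1.39 ± 0.58 for serum in wild-type cells (adjusted p = 0.112, edgeR), -0.49 ± 0.60 for serum in ΔLEO1 cells (adjusted p = 0.607, edgeR), and -0.74 ± 0.59 and 0.17 ± 0.59 between genotypes in 10% and 0.1% serum (adjusted p = 0.674 and 1, edgeR). In GENCODE 29, 40.0% of the 58-base stretches of its transcripts, the length of a read, also occur in transcripts of other genes, among them AC079781.5, which overlaps it on the same strand, so reads of ASNS may have been lost in the counting. For several other genes the counts may also be uncertain: 35.6% of the stretches of DDIT4, 28.8% of those of MTHFD2, 21.0% of SLC1A5, 20% of DDIT3 and 8.32% of SLC7A11 occur in overlapping genes, mainly on the opposite strand, or in near copies. The same holds for 16.1% of the stretches of ATF5 and 9.27% of those of CEBPB.

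**Figure D2:**
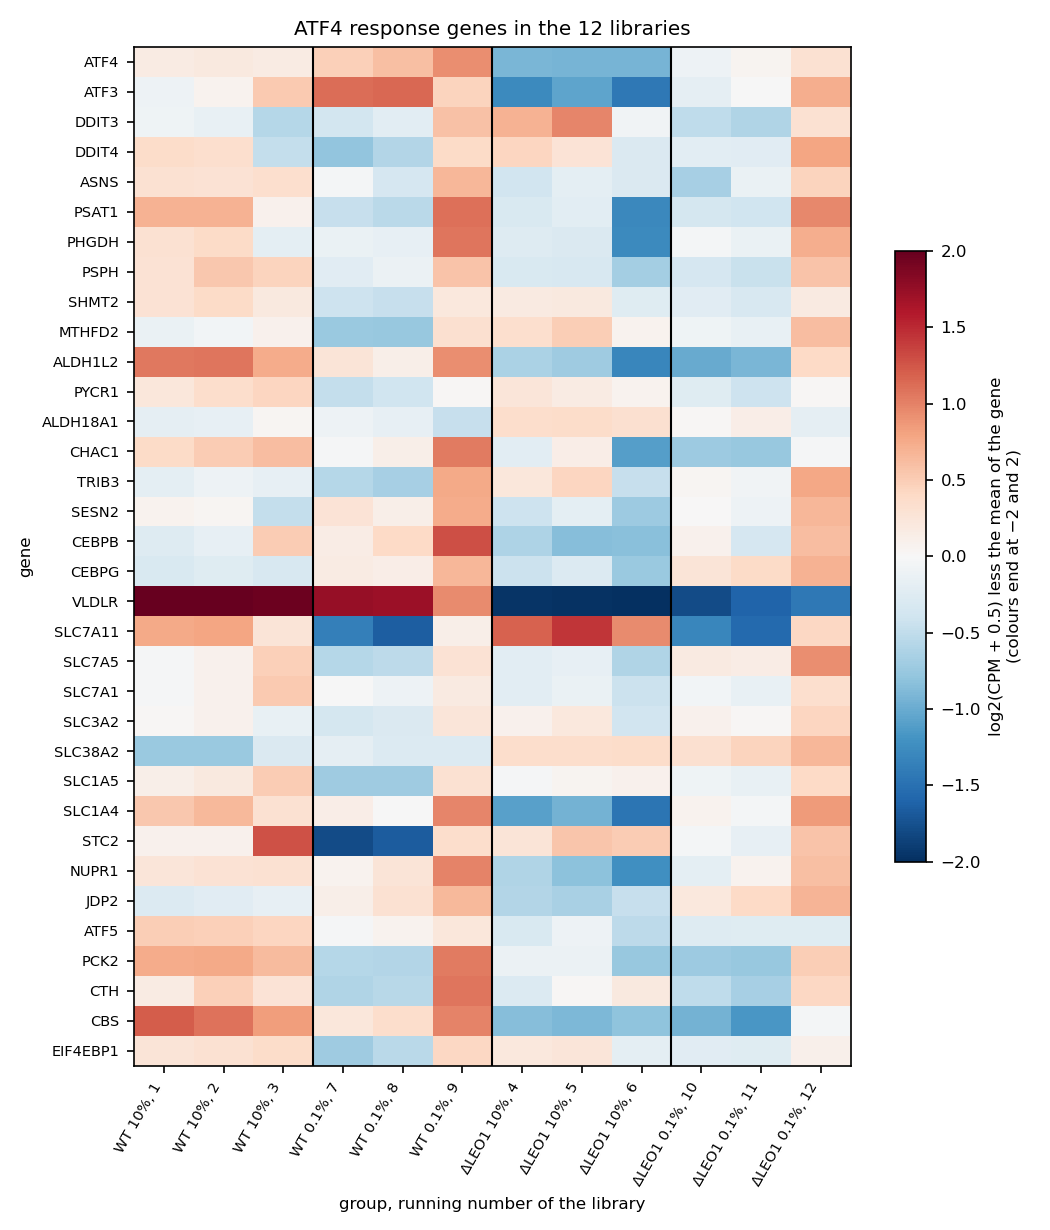
The 34 genes (rows) in the 12 libraries (columns), as log2(CPM + 0.5) minus that gene's average in all libraries, with red for higher and blue for lower and the colours ending at -2 and 2. VLDLR is red in wild-type and blue in ΔLEO1 libraries, and so is CBS except in library 12, where it is near its average. SLC7A11 is bluest in libraries 7, 8, 10 and 11, and many rows are redder in libraries 9 and 12 than in the other libraries in 0.1% serum.

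Serum was lowered in wild-type cells, and all 33 tested genes had a negative log2 fold change on the ERCC scale. In edgeR's quasi-likelihood test 19 fell at an adjusted p under 0.05 and 0 rose, against 27.0% and 0.831% of all tested genes. The likelihood ratio test called 22 of them lower and 0 higher, against 36.1% and 0.944% of all tested genes. DESeq2 called 16 lower and 0 higher, against 40.3% and 0.877%, and it did not call ALDH1L2, CBS, DDIT4 and PSAT1 but called ALDH18A1. Over the 33 genes the median log2 fold change was -1.35 and -0.97 over all tested genes, and 24 of the 33 lay below the median of all. For 23 genes the groups had no overlap in ERCC-scaled counts, all lower in 0.1% serum, against 53.4% of all tested genes lower and 1.16% higher. In CPM 5 were higher and 4 lower without overlap, against 31.5% and 18.6%. The count of 19 rested on single libraries: it was 3 without library 1, 5 without library 2, 2 without library 7 and 12 without library 9. The share of all tested genes called lower moved too, to 6.67%, 8.62%, 5.65% and 7.47% in these fits. The count rose to 24 without library 3, against 46.4% of all tested genes. Without library 11 or 12 it was 25, against 55.1% and 61.5%. Libraries 11 and 12 are not part of this comparison but entered the same fit. Without the highest-numbered library of each group the count was 27 lower and 0 higher, against 63.4% and 0.999% of all tested genes.

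The scaling decides the direction for many of these genes. With the TMM factor computed on the genes in place of the ERCC transcripts, which sets the median change of all genes near 0, 3 of the 33 rose and 4 fell, against 15.5% and 16.1% of all tested genes, and the median was -0.27. The genes that rose on that scale were ATF4 and its partners CEBPG and JDP2, and those that fell were VLDLR, PYCR1, SHMT2 and ATF5. Without the highest-numbered libraries and with TMM on the genes, 6 rose and 22 fell, against 27.1% and 30.0%.

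ATF4 mRNA (chr22:39519695-39522685, plus strand) did not pass the test on the ERCC scale in wild-type cells. ERCC-scaled counts of 40895, 34722 and 22527 were found in 10% serum and of 18844, 26380 and 20518 in 0.1% serum. These groups overlapped, with a log2 fold change of -0.58 ± 0.46 (adjusted p = 0.268, edgeR). As a share of the mRNA the order was the opposite: ATF4 had 324, 330.5 and 324 CPM in 10% serum and 402, 437 and 550 CPM in 0.1% serum. All libraries in 0.1% serum were above all in 10% serum, and with TMM on the genes ATF4 rose by 0.42 ± 0.12 (adjusted p = 0.0186, edgeR). A share of 14.4% of the stretches of ATF4 is shared with its pseudogenes.

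ATF3, CEBPB, CEBPG and JDP2 are transcription factors that pair with ATF4 or act beside it. Against a median of -0.97 for all genes on the ERCC scale, ATF3 had a log2 fold change of -0.15 ± 0.52, CEBPB of -0.43 ± 0.47, CEBPG of -0.46 ± 0.48 and JDP2 of -0.47 ± 0.48, and 0 of these passed the test. Their values had the opposite sign with TMM on the genes, where CEBPG rose by 0.56 ± 0.16 (adjusted p = 0.0187, edgeR) and JDP2 by 0.51 ± 0.14 (adjusted p = 0.0146, edgeR). CEBPG, a C/EBP protein that pairs with ATF4, had 30.7 to 32.6 CPM in 10% serum and 42.6 to 61.4 CPM in 0.1% serum, without overlap. ATF5, a factor related to ATF4, fell by 1.44 ± 0.49 on the ERCC scale (adjusted p = 0.0225, edgeR) and by 0.45 ± 0.11 with TMM on the genes (adjusted p = 0.00795, edgeR).

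SLC7A11, which brings in cystine for glutathione synthesis (chr4:138164097-138242349, minus strand), fell most. Its ERCC-scaled counts were 12982, 11093 and 5028 in 10% serum and 1092, 1149 and 2462 in 0.1% serum, and the groups did not overlap. It was 6.18-fold lower (log2 fold change -2.63 ± 0.50, adjusted p = 1.05e-05, edgeR). On the CPM scale it was 103, 106 and 72.4 in 10% serum against 23.3, 19.1 and 66.0 in 0.1% serum, where library 9 stood close to the 10% serum group. Scaling by TMM on the genes gave -1.45 ± 0.53 (adjusted p = 0.0543, edgeR). Without the highest-numbered libraries, which leaves 2 per group, this value was -2.38 ± 0.11 (adjusted p = 2.18e-10, edgeR). SLC7A11 and STC2 were the 2 of the 19 genes that passed the test on the ERCC scale whichever library was left out.

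STC2, a secreted glycoprotein of the stress response (chr5:173314713-173329503, minus strand), was 5.14-fold lower on the ERCC scale. Its ERCC-scaled counts were 22444, 18674 and 28179 in 10% serum and 2271, 3184 and 8016 in 0.1% serum, without overlap. Its log2 fold change was -2.36 ± 0.49 (adjusted p = 6.31e-05, edgeR), and -1.35 ± 0.52 with TMM on the genes (adjusted p = 0.0686, edgeR). In CPM the groups overlapped, with 178, 178 and 406 in 10% serum and 48.5, 52.8 and 215 in 0.1% serum. Library 9 was above libraries 1 and 2, and libraries 3 and 9 were the highest of their groups.

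Of the enzymes of serine synthesis, PSAT1 and PSPH passed the test and PHGDH did not, and the differences between them were not tested. PSAT1 had ERCC-scaled counts of 27851, 23264 and 10069 in 10% serum and 4608, 5642 and 10864 in 0.1% serum. It fell by 1.53 ± 0.48 (adjusted p = 0.0125, edgeR), although library 9 was above library 3. PSPH fell by 1.42 ± 0.50 (adjusted p = 0.0270, edgeR). PHGDH, the enzyme of the first step, had 27215, 23849 and 10529 in 10% serum and 7434, 9391 and 13590 in 0.1% serum, and its log2 fold change of -1.02 ± 0.47 did not pass (adjusted p = 0.0761, edgeR). None of these 3 enzymes passed with TMM on the genes, and PHGDH had 216, 227 and 152 CPM in 10% serum and 159, 156 and 365 CPM in 0.1% serum.

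The mitochondrial folate enzymes fell together on the ERCC scale. SHMT2, which passes a carbon unit from serine to folate, fell by 1.61 ± 0.48, MTHFD2 by 1.39 ± 0.48 and ALDH1L2, which removes formate from folate as carbon dioxide, by 1.64 ± 0.48. ALDH1L2 (chr12:105019784-105084577, minus strand) had ERCC-scaled counts of 33476, 28276 and 14811 in 10% serum and 7100, 8336 and 9044 in 0.1% serum, without overlap. Only SHMT2 of these 3 passed with TMM on the genes, at -0.57 ± 0.19 (adjusted p = 0.0373, edgeR).

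PYCR1, which makes proline, fell on both scales. It had 127, 138 and 145 CPM in 10% serum and 77.7, 82.3 and 109 CPM in 0.1% serum, without overlap. PYCR1 had a value of -1.68 ± 0.48 with ERCC scaling (adjusted p = 0.00662, edgeR) and -0.69 ± 0.14 with TMM on the genes (adjusted p = 0.00333, edgeR). ALDH18A1, the enzyme before PYCR1 in proline synthesis, had a log2 fold change of -1.15 ± 0.47 that did not pass (adjusted p = 0.0521, edgeR). A share of 19.3% of the stretches of PYCR1 occurs in the antisense gene AC145207.4 or in MYADML2, and the strand setting of the counting is not given in the sources used here.

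PCK2, a mitochondrial enzyme between oxaloacetate and phosphoenolpyruvate, had ERCC-scaled counts of 10731, 9055 and 5505 in 10% serum and 1593, 2035 and 3913 in 0.1% serum, without overlap. It fell by 1.75 ± 0.49 (adjusted p = 0.00512, edgeR). CBS, which joins serine and homocysteine, had 366, 276 and 147 in 10% serum and 57.0, 82.8 and 90.2 in 0.1% serum and fell by 1.77 ± 0.57 (adjusted p = 0.0147, edgeR). Neither passed with TMM on the genes. CTH, the next enzyme after CBS, reached -1.35 ± 0.56 on the log2 ERCC scale (adjusted p = 0.0530, edgeR).

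Of the amino acid transporters besides SLC7A11, SLC1A5 fell by 1.67 ± 0.47, SLC7A5 by 1.48 ± 0.48, SLC1A4 by 1.23 ± 0.49, SLC3A2 by 1.22 ± 0.48 and SLC7A1 by 1.20 ± 0.48 on the ERCC scale. SLC7A5 and SLC3A2 together form a carrier of large neutral amino acids, and SLC7A1 carries arginine and lysine. None of these 5 passed with TMM on the genes. SLC38A2, which concentrates small neutral amino acids in the cell, reached -0.68 ± 0.45 on the log2 ERCC scale (adjusted p = 0.186, edgeR). In CPM it was 639, 641 and 878 in 10% serum against 938, 886 and 883 in 0.1% serum, and the groups did not overlap, with the higher values in 0.1% serum. Its ERCC-scaled counts did not overlap in the opposite direction, with 80528, 67392 and 61010 in 10% serum and 43924, 53441 and 32936 in 0.1% serum.

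The mRNAs of the feedback and cell death genes did not pass the test in wild-type cells. CHAC1, which degrades glutathione, had ERCC-scaled counts of 1953, 1778 and 1277 in 10% serum and 544, 775 and 922 in 0.1% serum (adjusted p = 0.0642, edgeR). TRIB3, a pseudokinase that restrains ATF4, had 2932, 2612 and 1644 in 10% serum and 828, 998 and 1693 in 0.1% serum (adjusted p = 0.0819, edgeR). DDIT3, which encodes CHOP, had 965, 767 and 369 in 10% serum and 291, 423 and 466 in 0.1% serum (adjusted p = 0.162, edgeR). In TRIB3 and DDIT3 library 9 was above library 3. When the highest-numbered libraries were left out, which leaves 2 per group, all 3 were lower in 0.1% serum on the ERCC scale. In that fit 63.4% of all tested genes were called lower. The values were -1.50 for CHAC1 (adjusted p = 0.00149, edgeR), -1.60 for TRIB3 (adjusted p = 0.000818, edgeR) and -1.28 for DDIT3 (adjusted p = 0.00646, edgeR).

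Among the growth regulators, EIF4EBP1, which blocks the cap-binding factor eIF4E, fell by 1.63 ± 0.49 and DDIT4, which restrains mTORC1, by 1.58 ± 0.49 on the ERCC scale. SESN2, another inhibitor of mTORC1, had -0.65 ± 0.49, and the stress protein NUPR1 had -0.89 ± 0.48. Neither of these 2 passed. VLDLR fell by 1.68 ± 0.51 on the ERCC scale (adjusted p = 0.0103, edgeR) and by 0.73 ± 0.18 with TMM on the genes (adjusted p = 0.0114, edgeR).

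**Figure D3:**
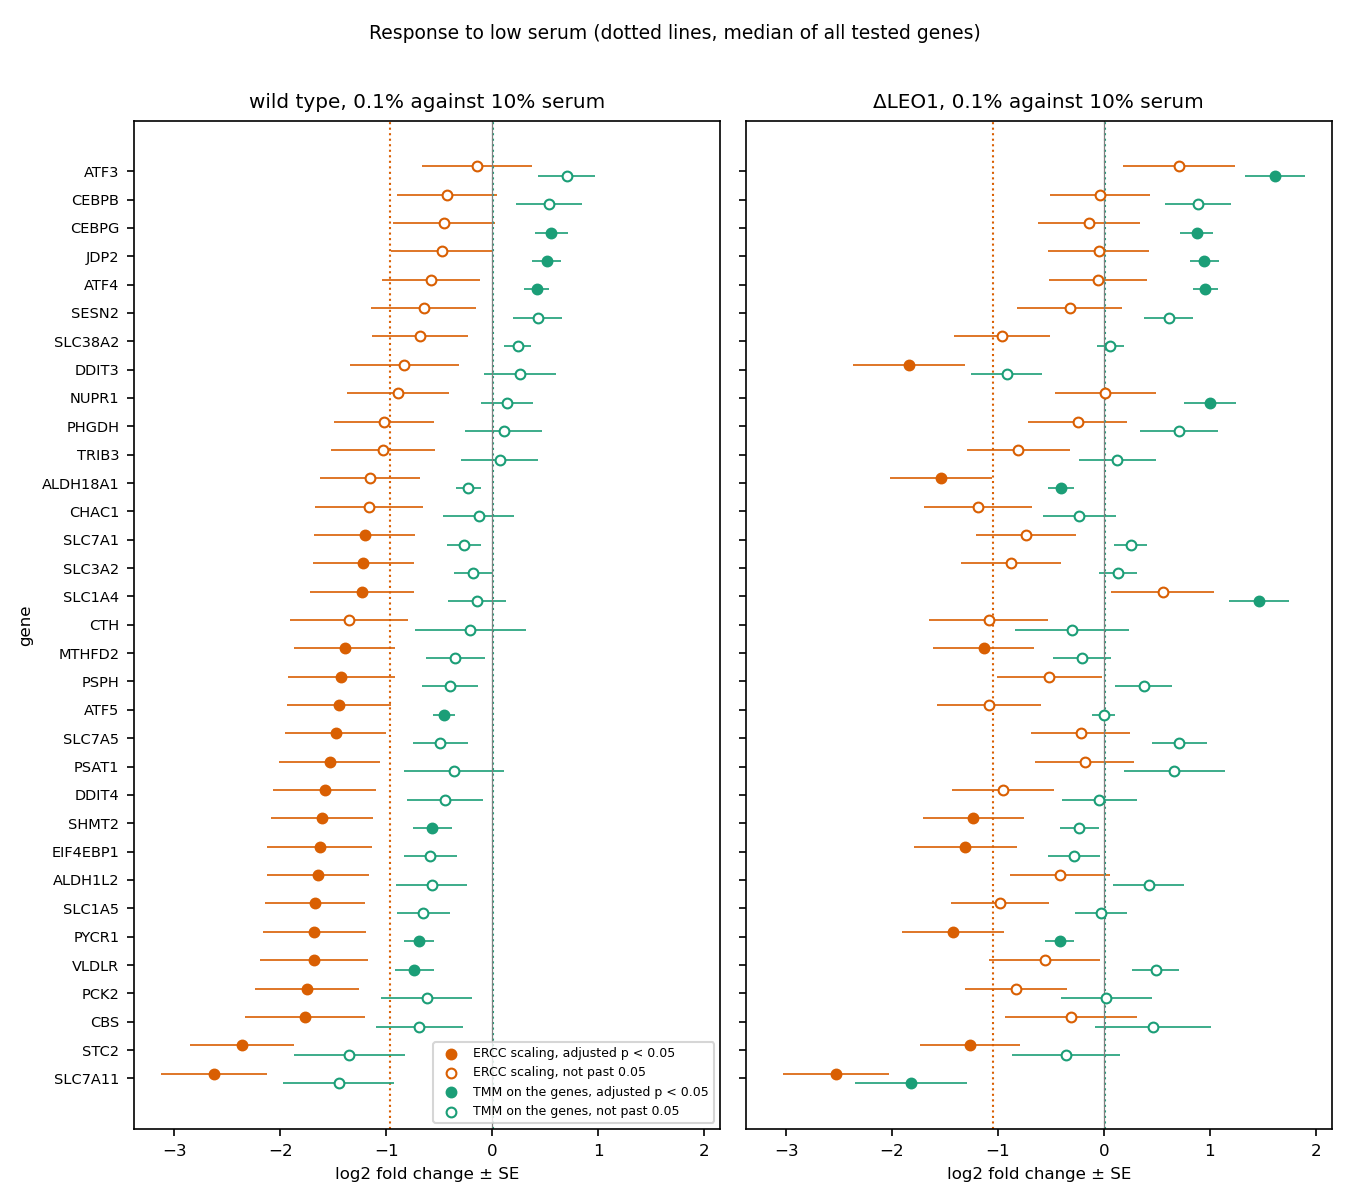
Log2 fold change ± SE between 0.1% and 10% serum (x axis) for the 33 tested genes (y axis) in wild-type cells (left) and ΔLEO1 cells (right), with ERCC scaling in orange and TMM on the genes in green, filled where the adjusted p was under 0.05. The dotted lines mark the median of all tested genes, at -0.97 and -1.05 with ERCC scaling, and SLC7A11 lies lowest in both panels.

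In ΔLEO1 cells serum was lowered in the same way. On the ERCC scale 8 of the 33 genes fell and 0 rose, against 36.4% and 0.793% of all tested genes, and none of the 3 positive values had an unadjusted p under 0.05. The likelihood ratio test called 10 lower and 0 higher, against 47.2% and 0.975% of all tested genes, and DESeq2 called 9 lower and 0 higher, against 51.9% and 0.817%. Over the 33 genes the median log2 fold change was -0.81 against -1.05 over all, and 11 of the 33 lay below the median of all. The ERCC-scaled counts did not overlap for 4 genes, all lower in 0.1% serum, against 50.9% of all tested genes lower and 0.846% higher. In CPM 11 were higher and 3 lower without overlap, against 27.3% and 15.8%. The comparison shares no library with that in wild-type cells. Both come from 1 fit in which all groups share an estimate of the spread, so their calls are not independent. The count was 28 without library 12, 1 without library 4, 10 or 11, 2 without library 5 and 4 without library 2 or 7. The share of all tested genes called lower was 87.5% without library 12, 4.14% without library 4, 3.08% without library 10 and 6.19% without library 11, and it was 9.21%, 17.8% and 17% without libraries 5, 2 and 7. Without the highest-numbered library of each group 31 were lower and 0 higher, against 92.0% and 0.658% of all tested genes.

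Under TMM on the genes 6 rose and 3 fell, against 15.5% and 12.1% of all tested genes, and the median was 0.14. The genes that rose were ATF4, ATF3, CEBPG, JDP2, NUPR1 and SLC1A4, and those that fell were SLC7A11, PYCR1 and ALDH18A1. Without the highest-numbered libraries and with TMM on the genes, 10 rose and 14 fell, against 28.3% and 27.7%.

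ATF4 had 153, 151 and 152 CPM in ΔLEO1 cells in 10% serum and 269.9, 301 and 357 CPM in 0.1% serum. The libraries in 0.1% serum were all above those in 10% serum, and ATF4 rose by 0.96 ± 0.12 with TMM on the genes (adjusted p = 0.00024, edgeR). The ERCC-scaled counts were 24214, 17608 and 16050 in 10% serum and 14217, 9008 and 32393 in 0.1% serum. These overlapped, with library 12 above all others, with a change of -0.06 ± 0.46 on the log2 scale (adjusted p = 0.912, edgeR).

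Its partners had the same order of CPM. ATF3, a repressor that pairs with ATF4, had 1.80 to 2.49 CPM in 10% serum and 5.0 to 9.83 in 0.1% serum, and rose by 1.62 ± 0.28 with TMM on the genes (adjusted p = 0.00191, edgeR), while its ERCC-scaled log2 fold change was 0.71 ± 0.53 (adjusted p = 0.221, edgeR). CEBPG rose by 0.88 ± 0.16, JDP2 by 0.95 ± 0.14 and NUPR1 by 1.00 ± 0.25 with TMM on the genes, and their ERCC-scaled values were -0.14 ± 0.48, -0.05 ± 0.48 and 0.01 ± 0.48. SLC1A4, which carries alanine, serine and cysteine, had 10.1 to 14.6 CPM in 10% serum and 27.6 to 51.9 in 0.1% serum. It rose by 1.47 ± 0.28 with TMM on the genes (adjusted p = 0.00313, edgeR), with 0.56 ± 0.49 on the ERCC scale (adjusted p = 0.296, edgeR).

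SLC7A11 fell on both scales in ΔLEO1 cells. Its ERCC-scaled counts were 21820, 19156 and 12356 in 10% serum and 1277, 607 and 7393 in 0.1% serum, and its CPM was 138, 164 and 117 against 24.2, 20.3 and 81.5. The groups did not overlap on either scale. The log2 fold change was -2.53 ± 0.50 with ERCC scaling (adjusted p = 3.59e-05, edgeR) and -1.82 ± 0.53 with TMM on the genes (adjusted p = 0.0248, edgeR). Its ERCC-scaled value without the highest-numbered libraries, with 2 left per group, was -4.45 (adjusted p = 2.84e-18, edgeR). SLC7A11 was the 1 of the 8 genes that passed on the ERCC scale whichever library was left out.

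The genes that fell next most on the ERCC scale were DDIT3, ALDH18A1 and PYCR1. DDIT3 had ERCC-scaled counts of 2145, 1934 and 816 in 10% serum and 295, 156 and 925 in 0.1% serum and fell by 1.84 ± 0.53 (adjusted p = 0.00808, edgeR), although library 12 was above library 6. ALDH18A1 had 31835, 23664 and 20569 in 10% serum and 8413, 5163 and 12595 in 0.1% serum, without overlap, and fell by 1.54 ± 0.48 (adjusted p = 0.0147, edgeR). PYCR1 had 20185, 14113 and 11915 in 10% serum and 4834, 2418 and 10015 in 0.1% serum and fell by 1.42 ± 0.48 (adjusted p = 0.0228, edgeR). In CPM, ALDH18A1 had 201, 203 and 195 in 10% serum against 160, 172 and 139, and PYCR1 had 128, 121 and 113 against 91.8, 80.7 and 110. Both sets of groups were separate, and with TMM on the genes ALDH18A1 fell by 0.40 ± 0.12 (adjusted p = 0.0274, edgeR) and PYCR1 by 0.42 ± 0.14 (adjusted p = 0.0414, edgeR).

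EIF4EBP1, STC2, SHMT2 and MTHFD2 fell by 1.31 ± 0.49, 1.26 ± 0.47, 1.23 ± 0.48 and 1.13 ± 0.48 on the ERCC scale, and 0 of these passed with TMM on the genes. STC2 had ERCC-scaled counts of 31705, 28709 and 25221 in 10% serum and 8603, 4502 and 22568 in 0.1% serum, without overlap. The serine synthesis enzymes did not pass the test in ΔLEO1 cells. PSAT1 had 17322, 13737 and 5851 in 10% serum and 5576, 3095 and 23910 in 0.1% serum (adjusted p = 0.728, edgeR). PHGDH had 23088, 16569 and 7531 in 10% serum and 8932, 4739 and 26138 in 0.1% serum (adjusted p = 0.633, edgeR). Library 6 was the lowest of its group and library 12 the highest of its group in both genes.

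CHAC1 had ERCC-scaled counts of 1603, 1515 and 551 in 10% serum and 363, 203 and 1054 in 0.1% serum (adjusted p = 0.0524, edgeR), and TRIB3 had 4926, 4171 and 2020 against 1437, 760 and 4161 (adjusted p = 0.136, edgeR). In both genes library 6 was the lowest and library 12 the highest of its group, and library 12 was above library 6. PCK2 had 7389, 5472 and 3154 in 10% serum and 1608, 898 and 6499 in 0.1% serum (adjusted p = 0.121, edgeR). When the highest-numbered libraries were left out, PCK2, CHAC1 and TRIB3 had log2 fold changes of -2.36, -2.47 and -2.05 on the ERCC scale (adjusted p = 3.43e-07, 8.86e-08 and 4.68e-06, edgeR). That fit has 2 libraries per group, and 92.0% of all tested genes were called lower in it.

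**Figure D4:**
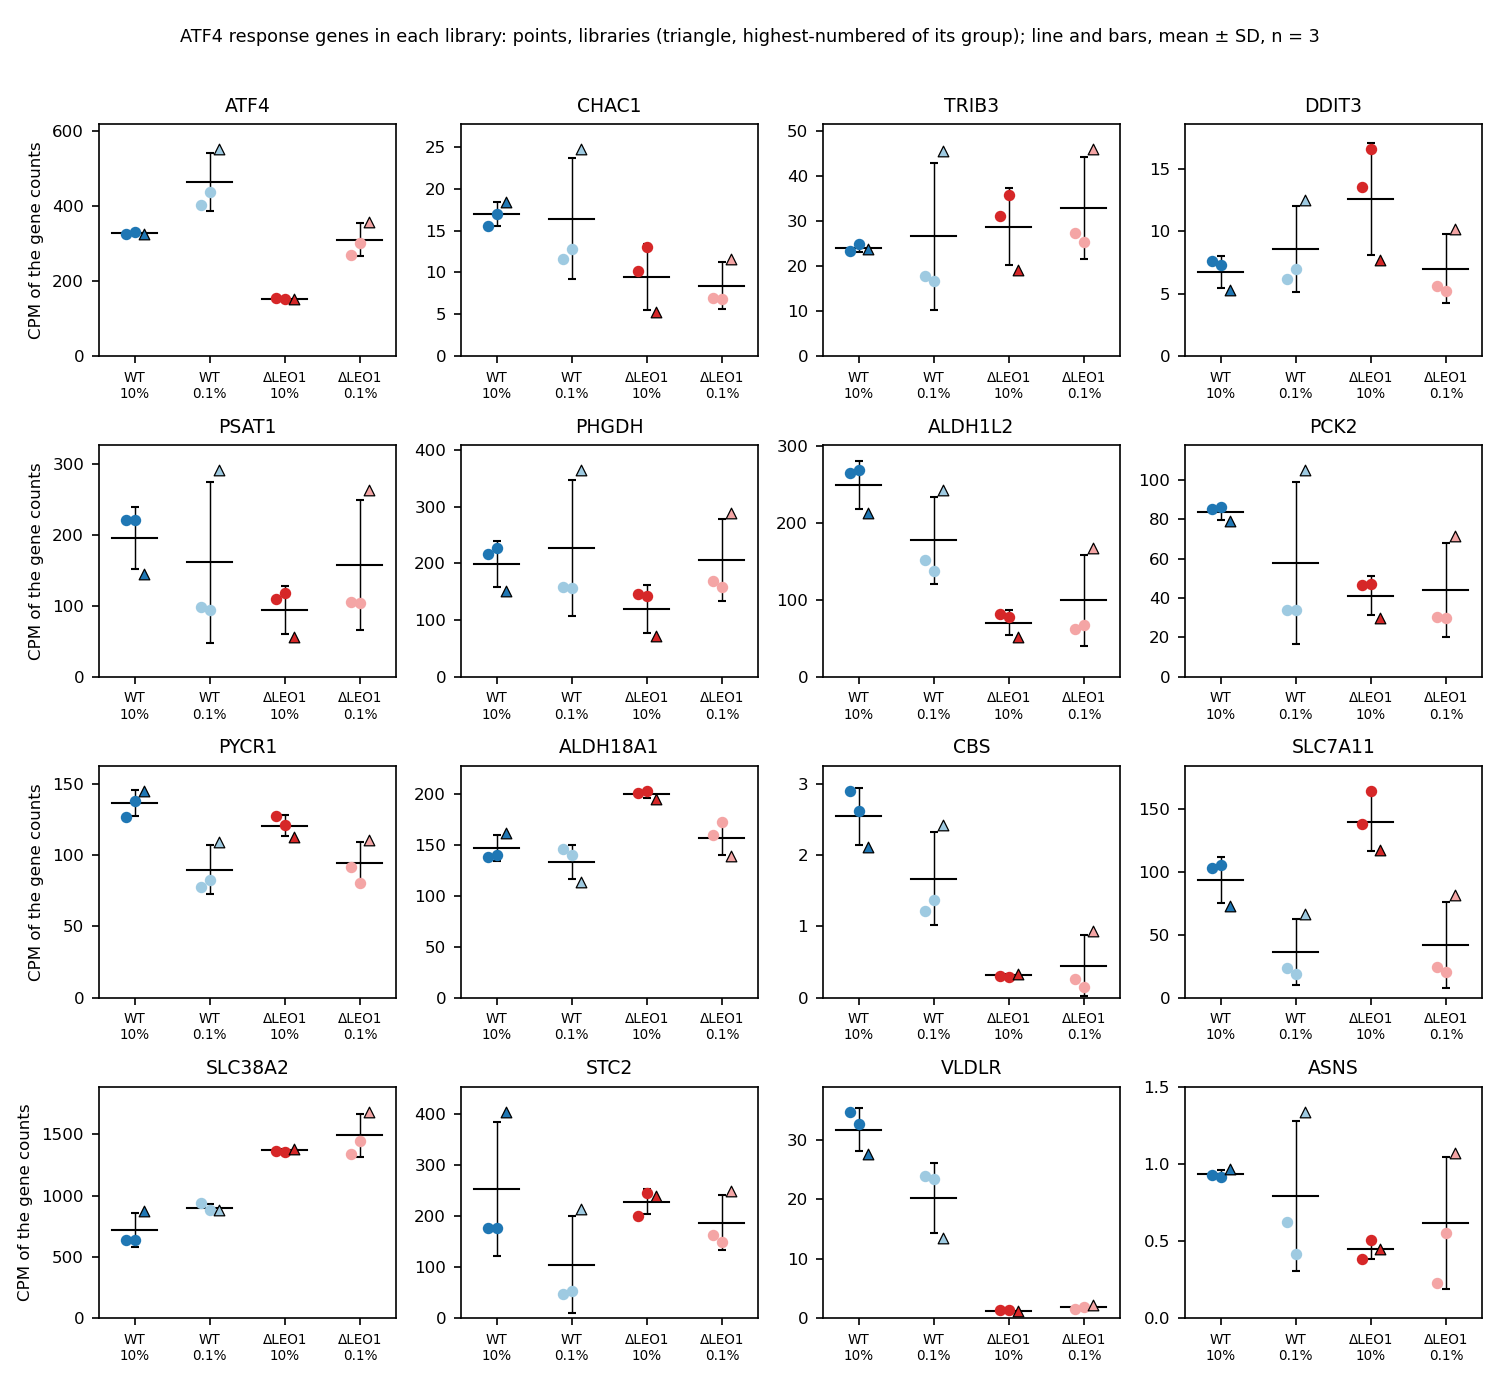
CPM (y axis, starting at 0) of 16 of the genes in the 4 groups (x axis), with a point for each library, a triangle for the highest-numbered library of its group, and the mean ± SD of 3 libraries. In CPM ATF4 was lower in ΔLEO1 cells in both media and higher in 0.1% than in 10% serum in both genotypes, the latter with the opposite sign with ERCC scaling, while the triangles of PSAT1, PHGDH, PCK2 and SLC7A11 lay above the circles in 0.1% serum.

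The genotypes were compared in 10% serum. These comparisons use the same libraries as the serum comparisons, so they are not independent of them. On the ERCC scale 1 of the 33 genes was higher in ΔLEO1 cells and 3 were lower, against 3.81% and 4.2% of all tested genes. The median log2 fold change was -0.06 over the 33 genes against 0.35 over all, and 26 of the 33 lay below the median of all. With TMM on the genes 2 were higher and 11 lower, against 17.9% and 21.4%, with a median of -0.40. Leaving out the highest-numbered libraries, 2 were higher and 4 lower on the ERCC scale, against 4.9% and 5.86%, and 7 were higher and 21 lower with TMM on the genes, against 30.3% and 31.9%. The count of lower genes on the ERCC scale was 2 without library 1, 2, 5, 6 or 7, when VLDLR and CBS were still called, and 5 without library 12, and the count of higher genes was 0 without any 1 of libraries 1 to 10 and 2 without library 11 or 12. Over these fits 2.23% to 7.14% of all tested genes were called higher and 2.84% to 5.93% lower.

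VLDLR (chr9:2621834-2660053, plus strand) differed most between the genotypes. It had 34.8, 32.7 and 27.7 CPM in wild-type cells and 1.37, 1.35 and 1.19 CPM in ΔLEO1 cells in 10% serum. In 0.1% serum it had 23.9, 23.4 and 13.5 CPM in wild-type cells and 1.61, 1.91 and 2.21 CPM in ΔLEO1 cells. The genotypes did not overlap in either medium on either scale. With ERCC scaling VLDLR was 19.6-fold lower in ΔLEO1 cells in 10% serum (log2 fold change -4.29 ± 0.58, adjusted p = 1.04e-11, edgeR) and 9.0-fold lower in 0.1% serum (-3.17 ± 0.55, adjusted p = 4.81e-07, edgeR). It passed in both media whichever library was left out, and its log2 fold change with TMM on the genes was -4.61 ± 0.22 and -3.39 ± 0.21. A share of 7.26% of its stretches occurs in an antisense transcript.

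CBS (chr21:43053191-43076943, minus strand) was lower in ΔLEO1 cells in 10% serum on both scales. It had 2.91, 2.63 and 2.12 CPM in wild-type cells and 0.309, 0.287 and 0.338 CPM in ΔLEO1 cells, from 12 to 15 counts per library. Its log2 fold change was -2.75 ± 0.61 with ERCC scaling (adjusted p = 0.000198, edgeR) and -3.03 ± 0.47 with TMM on the genes (adjusted p = 0.000398, edgeR). The near-identical copy CBSL shares 53.8% of the stretches of CBS, so reads may be split between them. CBSL had 2.17 to 2.5 CPM in wild-type and 0.855 to 1.03 CPM in ΔLEO1 cells in 10% serum.

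ALDH1L2 was also lower, with 265, 269 and 213 CPM in wild-type and 81.6, 77.5 and 51.4 CPM in ΔLEO1 cells in 10% serum. ALDH1L2 differed by -1.48 ± 0.48 on the log2 scale with ERCC scaling (adjusted p = 0.0274, edgeR) and -1.84 ± 0.34 with TMM on the genes (adjusted p = 0.00137, edgeR). DESeq2 with ERCC size factors did not call it (adjusted p = 0.232). SLC38A2 (chr12:46358189-46372867, minus strand) was the gene that was higher, with 639, 641 and 878 CPM in wild-type and 1362, 1359 and 1384 CPM in ΔLEO1 cells. The difference was 1.31 ± 0.46 on the log2 scale with ERCC scaling (adjusted p = 0.0488, edgeR) and 0.92 ± 0.13 with TMM on the genes (adjusted p = 0.000188, edgeR). All ΔLEO1 libraries were above all wild-type libraries.

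ATF4 made up a smaller share of the mRNA in ΔLEO1 cells in 10% serum, with 153, 151 and 152 CPM against 324, 330.5 and 324 CPM in wild-type cells. It was lower by 1.11 ± 0.12 on the log2 scale with TMM on the genes (adjusted p = 2.45e-05, edgeR). With ERCC scaling the groups overlapped and the value was -0.76 ± 0.47 (adjusted p = 0.461, edgeR). The other genes that were lower with TMM on the genes but did not pass with ERCC scaling were SLC1A4 at -1.70, ATF3 at -1.65, NUPR1 at -1.15, PSPH at -0.89, CEBPB at -0.86, ATF5 at -0.79 and SLC7A1 at -0.48 (log2). Their ERCC-scaled values were also negative, from -1.36 for SLC1A4 to -0.06 for SLC7A1. Of the serine synthesis and glutathione genes, PSAT1 had 221, 221 and 145 CPM in wild-type and 110, 118 and 55.5 CPM in ΔLEO1 cells, and CHAC1 had 15.5, 16.9 and 18.4 against 10.1, 13.0 and 5.22. Neither gene overlapped between genotypes in CPM, and neither passed on either scale.

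Not every gene of the response was lower. ALDH18A1 had 138, 140 and 161 CPM in wild-type and 201, 203 and 195 CPM in ΔLEO1 cells and was higher by 0.44 ± 0.12 with TMM on the genes (adjusted p = 0.0130, edgeR). DDIT3 had 7.65, 7.30 and 5.30 CPM in wild-type and 13.6, 16.6 and 7.74 CPM in ΔLEO1 cells, without overlap, and did not pass on either scale (adjusted p = 0.160 with ERCC scaling and 0.0548 with TMM on the genes, edgeR). SLC7A11 had 103, 106 and 72.4 against 138, 164 and 117 CPM, without overlap, and did not pass either (adjusted p = 0.378 and 0.406, edgeR). In CPM, 4 of the 33 genes were higher and 19 lower in ΔLEO1 cells without overlap, against 29.8% and 29.6% of all tested genes. In ERCC-scaled counts 2 were higher and 5 lower without overlap, against 23.7% and 6.94%.

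In 0.1% serum 1 of the 33 genes was higher in ΔLEO1 cells and 1 was lower on the ERCC scale, against 3.49% and 3.41% of all tested genes. The median log2 fold change was 0.42 over the 33 genes against 0.27 over all. In ERCC-scaled counts 0 genes were higher and 1 was lower without overlap, against 4.64% and 4.83%, and in CPM 1 was higher and 5 were lower, against 19.7% and 21.8%. With TMM on the genes 1 was higher and 4 were lower, against 15.1% and 17.3%, with a median of -0.04. Leaving out the highest-numbered libraries, 1 was higher and 5 were lower on the ERCC scale, against 2.26% and 11.8%, and 13 were higher and 8 lower with TMM on the genes, against 30.4% and 29%. Library 12 alone turned the median, which was -0.57 without it, with 0 genes higher and 5 lower, against 2.37% and 7.25% of all tested genes. Without library 11 the count of higher genes was 8, against 8.48%, and without library 1, 2, 4, 5, 6, 7, 8 or 10 it was 0, with 2.04% of all tested genes at the lowest.

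The lower gene was VLDLR, as given above, and the higher gene was STC2. STC2 had ERCC-scaled counts of 2271, 3184 and 8016 in wild-type and 8603, 4502 and 22568 in ΔLEO1 cells in 0.1% serum, which overlapped. STC2 was higher by 1.40 ± 0.48 on the log2 scale (adjusted p = 0.0460, edgeR), and it lost the call when any of 9 libraries was left out and in DESeq2 (adjusted p = 0.105). Under TMM on the genes it was 0.83 ± 0.52 (adjusted p = 0.247, edgeR). Without the highest-numbered libraries, which leaves 2 per group, this value was 1.69 ± 0.09 (adjusted p = 9.89e-10, edgeR).

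ATF4 had 402, 437 and 550 CPM in wild-type and 269.9, 301 and 357 CPM in ΔLEO1 cells in 0.1% serum, without overlap, and was lower by 0.57 ± 0.12 with TMM on the genes (adjusted p = 0.00331, edgeR). The ERCC-scaled value was -0.24 ± 0.46 (adjusted p = 0.898, edgeR). The others that were lower with TMM on the genes were CBS at -1.88 ± 0.48 and ATF5 at -0.34 ± 0.11, and SLC38A2 was higher by 0.74 ± 0.13. SLC38A2 had 938, 886 and 883 CPM in wild-type and 1339, 1448 and 1686 CPM in ΔLEO1 cells. CHAC1 had 11.6, 12.8 and 24.7 CPM in wild-type and 6.90, 6.76 and 11.6 CPM in ΔLEO1 cells and was the 1 further gene whose values were lower without overlap, by a narrow margin (adjusted p = 0.0535 with TMM on the genes, edgeR).

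**Figure D5:**
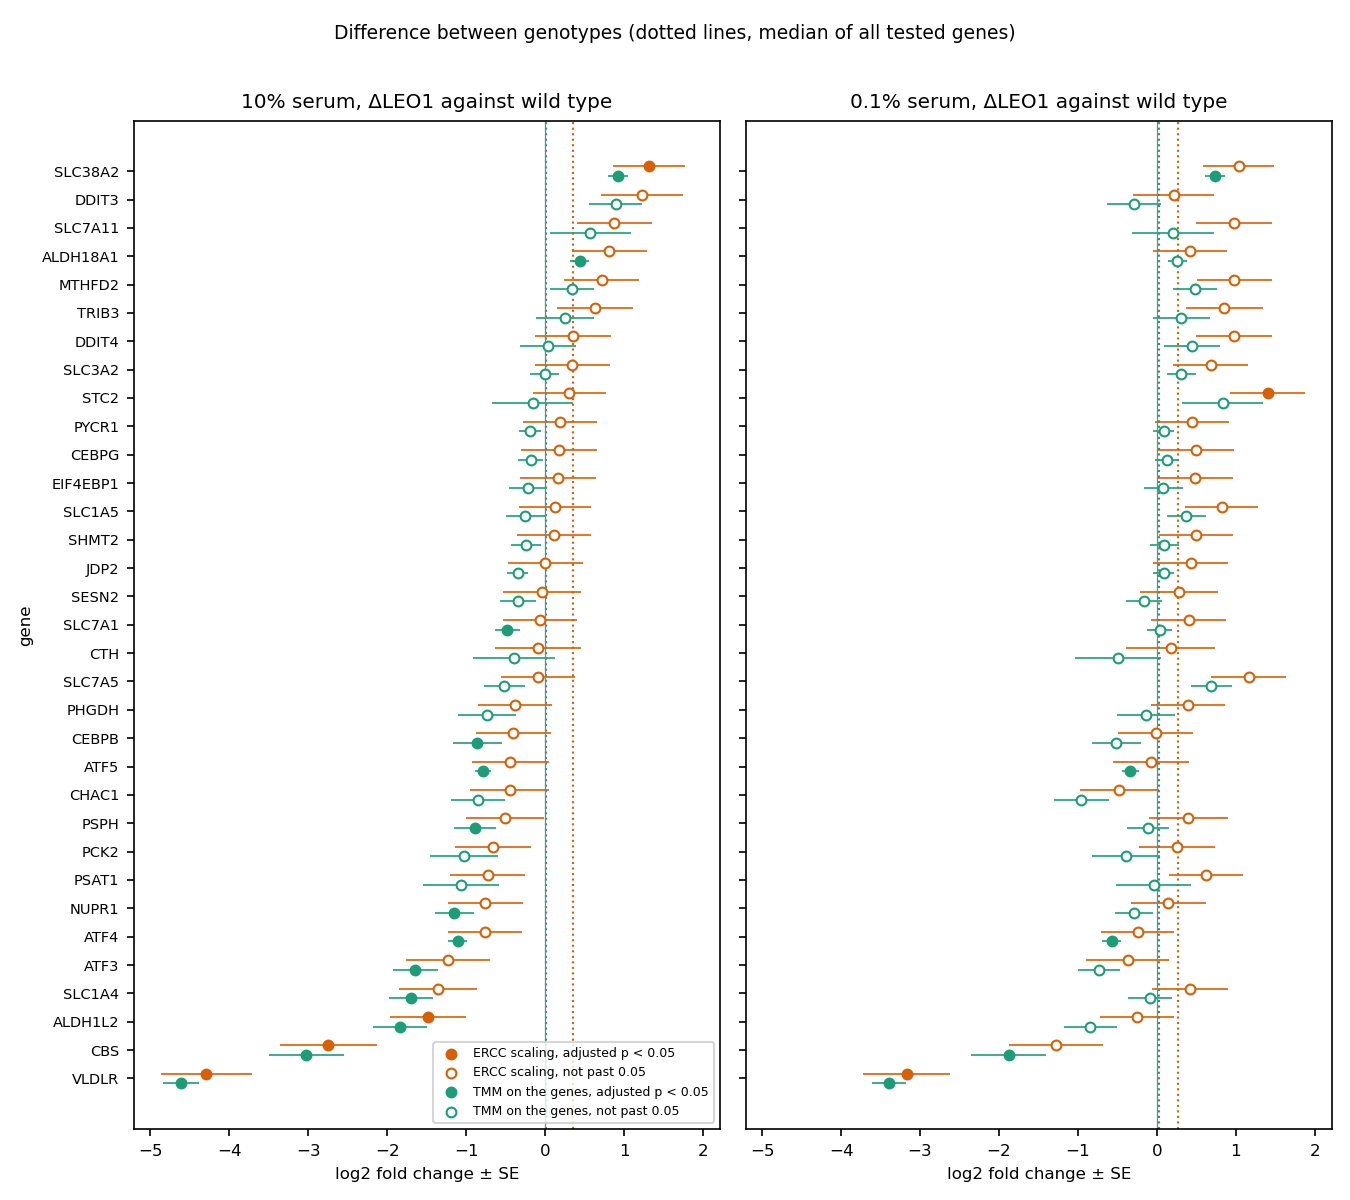
Log2 fold change ± SE between ΔLEO1 and wild-type cells (x axis) for the 33 tested genes (y axis) in 10% serum (left) and 0.1% serum (right), with ERCC scaling in orange and TMM on the genes in green, filled where the adjusted p was under 0.05. VLDLR lies lowest in both panels, at -4.29 and -3.17 with ERCC scaling, and dotted lines mark the median of all tested genes.

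Whether serum acted differently in the genotypes was tested with the interaction of genotype and serum. On the ERCC scale 0 of the 33 genes passed in either direction with edgeR's quasi-likelihood test, against 0.113% higher and 0.0604% lower of all tested genes. The likelihood ratio test (0.136% and 0.0831% of all) and DESeq2 (0.0605% and 0.0756%) also called 0 of the 33. At an unadjusted p under 0.05 there were 2, against 2.12% of all tested genes, SLC1A4 (interaction 1.78 ± 0.69 on the log2 scale, adjusted p = 1) and PSAT1 (1.35 ± 0.67, adjusted p = 1). The median was 0.42 over the 33 genes and -0.07 over all, and 29 of the 33 values were positive, which stands for a smaller drop or a larger rise in ΔLEO1 cells. Library 12 turned this median, which was -0.35 without it.

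Under TMM on the genes 0 passed, against 1.55% and 0.453% of all tested genes called higher and lower, and 10 had an unadjusted p under 0.05, against 13.9%, and the median was 0.43. Without the highest-numbered libraries and with TMM on the genes, 19 of the 33 were called higher and 3 lower, against 15.7% and 8.66% of all tested genes. That fit, which was chosen after the data were seen, has 2 libraries per group. The largest values in it were those of SLC1A4 at 1.65 ± 0.12, STC2 at 1.37 ± 0.12, PSAT1 at 1.15 ± 0.09 and SLC7A5 at 1.00 ± 0.09, and the lower genes were DDIT3 at -1.23 ± 0.18, SLC38A2 at -0.41 ± 0.09 and ALDH18A1 at -0.26 ± 0.08. On the ERCC scale without those libraries 0 passed, against 0.108% higher and 0.349% lower of all tested genes, and the median was -0.21. The sign of the median depended on the scaling in the fits without those libraries, and with all libraries it was positive on both scales.

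Other genes of the pathway were followed as fixed lists. Of 17 genes of eIF2 phosphorylation and its control, 6 fell in wild-type cells in 0.1% serum on the ERCC scale, against 27.0% of all tested genes, with the largest falls in the eIF2 subunit EIF2S2 (-1.43 ± 0.48), the GCN2 activator GCN1 (-1.40 ± 0.48) and EIF2AK4, which encodes GCN2 (-1.39 ± 0.48). In ΔLEO1 cells 13 fell, against 36.4%, with GCN1 at -1.61 ± 0.48, EIF2S1 at -1.49 ± 0.48 and EIF2S3 at -1.47 ± 0.48. The medians of -1.05 and -1.21 were close to those of all genes (-0.97 and -1.05). Between genotypes 0 of the 17 passed on the ERCC scale, with 1 and 0 at an unadjusted p under 0.05 in 10% and 0.1% serum. Under TMM on the genes 8 were higher and 1 lower in ΔLEO1 cells in 10% serum, against 17.9% and 21.4%.

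A list of 25 other genes known to depend on ATF4 had 23 that passed the filter. Of these, 11 fell in wild-type cells in 0.1% serum on the ERCC scale, against 27.0% of all tested genes, led by the branched-chain aminotransferase BCAT1 (-2.26 ± 0.48), the alanine aminotransferase GPT2 (-1.71 ± 0.51) and NIBAN1 (-1.54 ± 0.48). In ΔLEO1 cells 3 fell, against 36.4%, BCAT1 (-1.76 ± 0.48), NIBAN1 (-1.53 ± 0.48) and the tRNA synthetase EPRS1 (-1.29 ± 0.47). Between genotypes 0 of the 23 were higher and 2 lower in 10% serum, against 3.81% and 4.2%, and 1 was higher and 2 lower in 0.1% serum, against 3.49% and 3.41%. The secreted peptides ADM2 and GDF15 were lower in ΔLEO1 cells in both media, ADM2 by 5.14 ± 0.72 and 3.65 ± 0.67 and GDF15 by 1.81 ± 0.55 and 2.46 ± 0.56 on the log2 ERCC scale. BCAT1 was higher in ΔLEO1 cells in 0.1% serum by 1.73 ± 0.48 (adjusted p = 0.00576, edgeR). These calls of ADM2, GDF15 and BCAT1 were also made with TMM on the genes.

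The ATF6 and XBP1 branches of the unfolded protein response act beside ATF4 when the endoplasmic reticulum is stressed. Of 13 of their targets 4 fell in wild-type cells on the ERCC scale, against 27.0% of all tested genes, with HYOU1 at -1.67 ± 0.48, EDEM1 at -1.45 ± 0.49 and SEL1L at -1.35 ± 0.48, and 9 fell in ΔLEO1 cells, against 36.4%, with HYOU1 at -1.74 ± 0.48, HSP90B1 at -1.61 ± 0.46 and PDIA4 at -1.46 ± 0.48. A list of 12 serine and folate enzymes outside the 34 genes had 8 that passed the filter, of which 5 fell in wild-type and 4 in ΔLEO1 cells on the ERCC scale, against the same shares of all tested genes, led in both by the mitochondrial serine carrier SFXN1 (-1.93 ± 0.49 and -1.88 ± 0.49). SFXN1 also fell with TMM on the genes, by 1.00 ± 0.11 and 0.76 ± 0.11. For these 2 lists 0 members passed between genotypes on the ERCC scale (edgeR), with 0 of the 13 at an unadjusted p under 0.05 in either medium and 0 and 1 of the 8 in 10% and 0.1% serum. Under TMM on the genes 3 of the 13 were lower in ΔLEO1 cells in each medium, against 21.4% of all tested genes in 10% and 17.3% in 0.1% serum, and SFXN1 of the 8 was higher in 0.1% serum, against 15.1%.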

How the data were processed

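Poly(A) RNA of 12 libraries, 3 in each of 4 groups, was sequenced in pairs. The deposited values are raw counts per gene and per ERCC transcript, which the authors made by aligning the reads with STAR and counting them over exons with featureCounts. The submitters' processing notes name bcl2fastq 2.20.0.422, STAR 2.7.10a, featureCounts 1.5.1 and GRCh38. The annotation release and the strand setting are not given in the sources used here. Genes above 1 CPM in 3 or more libraries were tested (13236 genes). Library size was the ERCC total times its TMM factor. Counts of all 12 libraries entered 1 fit with edgeR 4.0.16 (R 4.3.3), with the quasi-likelihood test, Benjamini-Hochberg adjustment over all tested genes and a threshold of 0.05, and the SE was the log2 fold change divided by the square root of F. The alternatives were the likelihood ratio test, DESeq2 1.42.0, TMM or DESeq2 size factors on the genes, other filters, libraries left out, and a term for the highest-numbered libraries. The quasi-likelihood test, the likelihood ratio test and DESeq2, each with ERCC scaling on all 12 libraries, were tried on simulated data. The other alternatives were not. The fits without the highest-numbered libraries with TMM on the genes were added after the data were seen. Values in every library are given for ATF4, ASNS, PSAT1, PHGDH, CHAC1, TRIB3, DDIT3 and SLC7A11 and, in each comparison, for up to 4 called genes per direction, taken by the size of their change, and up to 3 called genes per direction are named from each other list. Other genes were named after their values were seen. The 34 genes and all lists were chosen with earlier results of these data known. Positions and read-length stretches come from GENCODE 29, and promoter windows from RefSeq. Intervals cover counting error only.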

Additional observations from a re-analysis of the deposited data

How the results depend on the processing

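No paired analysis was possible because no replicate number is shared between groups. With TMM on the genes, serum changed 3 genes to higher and 4 to lower in wild-type cells (median -0.27) and 6 and 3 in ΔLEO1 cells (median 0.14). DESeq2 size factors on the genes gave the same counts, with medians of -0.27 and 0.14. Between genotypes, TMM on the genes gave 2 higher and 11 lower in 10% serum and 4 lower in 0.1% serum, and DESeq2 size factors gave 3, 11 and 4. With no filter on low counts, 4 genes were lower with serum in ΔLEO1 cells, and 0 were higher between genotypes in either medium. DESeq2 with ERCC size factors gave 0 higher in 0.1% serum. Without the highest-numbered libraries, 31 genes were lower with serum in ΔLEO1 cells (median -1.84), 2 higher between genotypes in 10% serum and 5 lower in 0.1% serum. A term for those libraries gave 5, 0 higher in 10% and 0 higher in 0.1% serum. Without them and with TMM on the genes, the counts of higher and lower genes were 6 and 22 (median -0.60) and 10 and 14 for serum, 7 and 21 and 13 and 8 between genotypes, and 19 and 3 for the interaction. In each of these the cause was not tested. The share of all tested genes is not given here for DESeq2 size factors on the genes or the fit with no filter. It is also not given for the term for the highest-numbered libraries or for DESeq2 between genotypes. The counts from these fits can therefore not be set against all genes.

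Leaving out each library in turn, serum gave 0 higher and 2 to 25 lower in wild-type cells (median -1.56 to -1.19) and 0 higher and 1 to 28 lower in ΔLEO1 cells (median -1.60 to -0.40). Between genotypes it gave 0 to 2 higher and 2 to 5 lower in 10% serum (median -0.23 to 0.13) and 0 to 8 higher and 1 to 5 lower in 0.1% serum (median -0.57 to 0.79). The interaction gave 0 in either direction (median -0.35 to 0.81). The share of all tested genes called lower with serum ran from 5.65% to 61.5% in wild-type and from 3.08% to 87.5% in ΔLEO1 cells. At most 1.38% and 0.903% were called higher. Between genotypes 2.23% to 7.14% of all tested genes were called higher and 2.84% to 5.93% lower in 10% serum. In 0.1% serum these shares were 2.04% to 8.48% and 2.14% to 7.25%. The share for the interaction is not given here. No gene called in the main test changed its direction in any alternative. Genes called only with TMM on the genes could differ in sign. ATF4, CEBPG and JDP2 were called higher in 0.1% serum in both genotypes on that scale but had negative values with ERCC scaling. With 3 libraries per group and ERCC totals that spread within groups, most ERCC-scaled standard errors of single genes were near 0.48. The smallest log2 fold change called on that scale in the main test was -1.13, for MTHFD2 with serum in ΔLEO1 cells, and smaller changes were not called. ASNS and CBS rest on few counts.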
